A study of Homo sapiens with 6 samples.

Results

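Ki67, the protein of MKI67, and 9 of its perichromosomal or nucleolar partners were followed in RNA-seq counts of SCC-9 cells. The 10 genes were chosen by name for what is known of their proteins, with earlier results of these data known, and are 10 of the 25349 genes in the count table. They are MKI67 itself, NIFK, the phosphatase genes PPP1CA and PPP1CC with the targeting subunits CDCA2 and RRP1B, the nucleolar genes NPM1, NCL and RRS1, and BANF1. All 10 passed the filter on low counts that left 14661 genes for testing.

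SCC-9 is an established human cell line, grown from a squamous carcinoma of the tongue. Both groups were transfected with 10 nM siRNA on day 0 and again on day 2, and each has 3 libraries. Cells of the siE7 group received an siRNA against exon 7 of MKI67, and cells of the siNC group received a control siRNA. The sources used here list several siRNAs against this exon without naming the one in these libraries, and nothing says whether the 3 samples of a group came from separate cultures, so p-values measure only the spread between these samples. Squamous epithelial markers summed to between 24500 and 29821 CPM per library, where CPM is a gene's counts divided by the library's total and multiplied by 1e6, and 6 of these 10 markers fell and 1 rose with siE7 (edgeR, adjusted p under 0.05), where 16.0% of all tested genes fell and 18.0% rose. Fibroblast markers summed to between 15.8 and 24.2 CPM, leukocyte markers to at most 3.31 and endothelial markers to at most 0.46, and PTPRC, CD3E and LYZ had no count.

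Ki67 coats chromosomes in mitosis, where it forms much of the perichromosomal layer and keeps chromosomes apart from each other, and in interphase it sits at the rim of nucleoli. Nucleolar proteins such as NPM1 and NCL travel with this layer while nucleoli are dissolved. NIFK binds the forkhead-associated domain of Ki67, and Ki67 and CDCA2 (Repo-Man) carry a related motif through which they hold the catalytic subunit of protein phosphatase 1 (PP1). BANF1 (barrier-to-autointegration factor) binds DNA and gathers nuclear envelope around the chromosomes when mitosis ends. Most of this biology rests on protein contacts and phosphorylation, and the libraries measured mRNA.

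MKI67 lies at chr10:128096659-128126423 on the minus strand of GRCh38, and exon 7 of its 15 canonical exons covers chr10:128114928-128116007. Exon 7 is 1080 bases long, a multiple of 3, and makes up 8.49% of the canonical transcript of 12716 bases. Both ends of the targeted exon are shown 5′ to 3′ on the transcribed sense, with 100 exon bases in capitals and 20 bases of the neighbouring intron in lower case, at chr10:128115908-128116027 for its start and chr10:128114908-128115027 for its end.
start of exon 7: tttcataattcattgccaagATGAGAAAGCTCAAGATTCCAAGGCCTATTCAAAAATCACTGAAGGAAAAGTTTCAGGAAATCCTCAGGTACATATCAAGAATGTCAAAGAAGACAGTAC
end of exon 7: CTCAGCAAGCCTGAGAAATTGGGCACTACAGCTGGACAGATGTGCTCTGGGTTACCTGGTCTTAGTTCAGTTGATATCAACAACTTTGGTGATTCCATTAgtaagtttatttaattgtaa
The counts are per gene, so transcripts with and without this exon were added together.

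Levels are given as CPM scaled by TMM (trimmed mean of M-values) factors, which set libraries of different composition to a common scale, and the groups were compared by the quasi-likelihood test of edgeR, with p-values adjusted over all tested genes after Benjamini and Hochberg. MKI67 fell the furthest of the 10 genes. It stood at 1072, 1029 and 1077 CPM in the siNC libraries and at 112, 124 and 108 CPM in the siE7 libraries. The groups lay far apart, and the 3 libraries within each differed little. The mean was 1059 ± 26.7 CPM with siNC and 115 ± 8.70 CPM with siE7 (SD, n = 3 each), a level 0.108 times that of siNC. The log2 fold change was -3.21 (SE 0.114, 95% interval -3.46 to -2.96), with an adjusted p of 6.7e-08 (edgeR). The two-sided exact permutation test over the libraries gave p = 0.1, the smallest that 3 against 3 can give. In bulk samples, fewer cells that express MKI67 and less MKI67 RNA per cell cannot be told apart.

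One library stands apart from its group, and several partners follow it. Over all genes, siE7 replicate 1 differed from siE7 replicates 2 and 3 by a chi-square of 61.1 and 72.7 per degree of freedom, against 6.22 between siE7 replicates 2 and 3 and 5.54 to 6.17 among the siNC libraries. Its total of 29550264 counts was the highest of the 6, which ranged down to 25608192. Values are therefore also given without siE7 replicate 1, a library picked after its values had been seen. Those fits keep only siE7 replicates 2 and 3, which lie close together, and their small SE and p-values reflect that remaining spread. Against each siNC library, siE7 replicate 1 gave the lowest chi-square of the siE7 libraries. It was 116 to 125, against 123 to 133 for siE7 replicate 2 and 136 to 147 for siE7 replicate 3.

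Of the 10 genes, 4 passed an adjusted p of 0.05, all of them lower with siE7, namely MKI67, RRS1, PPP1CA and BANF1. Among all genes tested, 34.0% passed, 18.0% higher and 16.0% lower. MKI67 alone was a differentially expressed gene (DEG), with an adjusted p under 0.05 and a log2 fold change beyond 1, where 4.84% of all genes were DEGs lower with siE7. In 6 genes (MKI67, PPP1CA, PPP1CC, RRP1B, RRS1 and BANF1) every siE7 library lay below every siNC library, as it did in 22.7% of all genes. Without siE7 replicate 1, 8 of the 10 passed, with NIFK and NPM1 higher and MKI67, PPP1CA, PPP1CC, RRP1B, RRS1 and BANF1 lower. That setting called 58.4% of all genes, 28.9% higher and 29.5% lower. The share of members called was 40% and 80% in these fits.

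**Figure D1:**
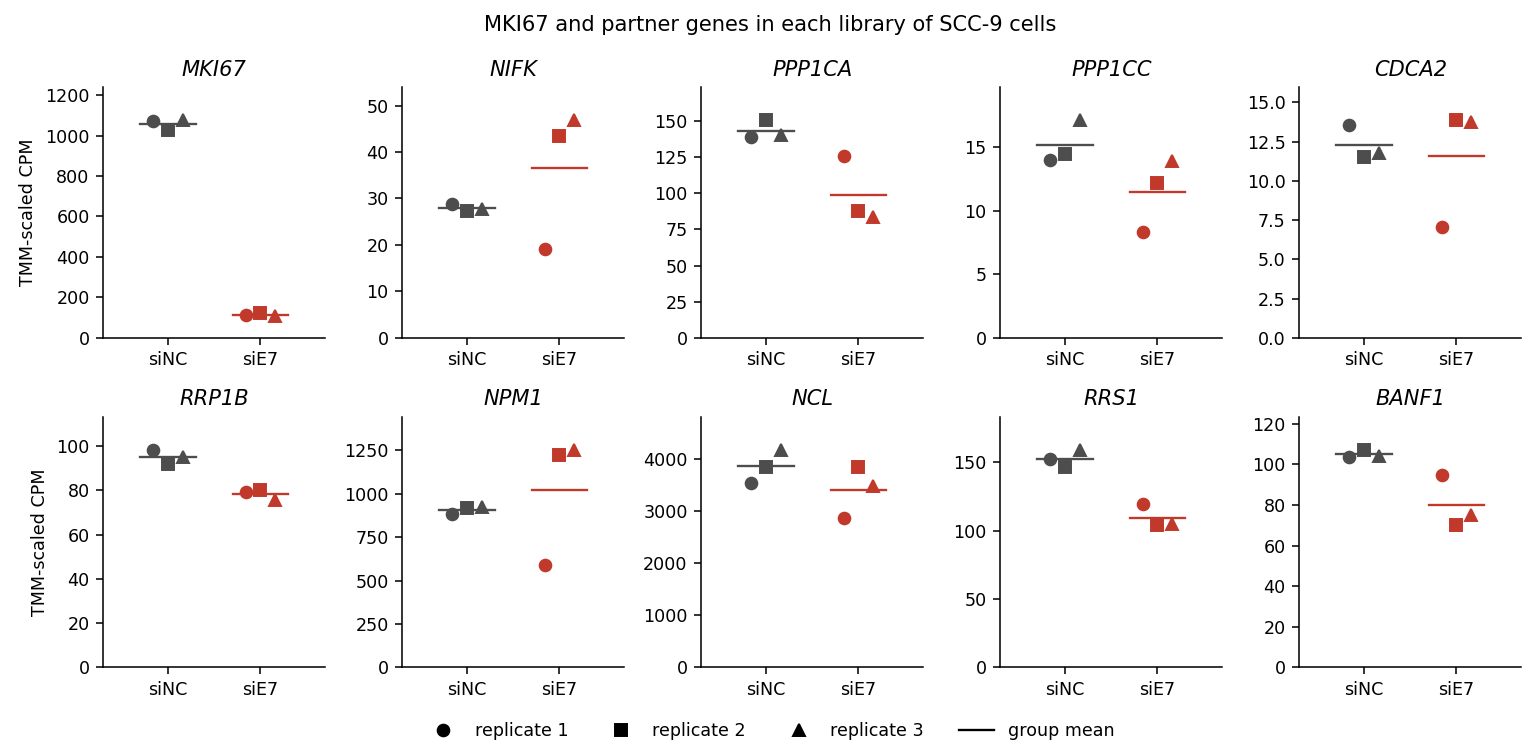
Level of each gene in each library, in TMM-scaled CPM on linear axes from 0, with 1 point per library, a symbol for each replicate number and a line at the group mean. MKI67 falls from about 1059 to 115 CPM in every siE7 library, whereas NIFK, NPM1 and CDCA2 are lower than siNC in siE7 replicate 1 and higher in the other siE7 libraries.

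NIFK, the nucleolar protein that binds the forkhead-associated domain of Ki67 and takes part in ribosome assembly, was not called in either direction. Its levels were 28.7, 27.3 and 27.6 CPM with siNC and 19.2, 43.5 and 46.9 CPM with siE7. Replicate 1 of siE7 was below all siNC libraries and the others above them. The log2 fold change was 0.39 (95% interval -0.18 to 0.95, adjusted p = 0.268, edgeR), and without siE7 replicate 1 it was 0.64 (SE 0.0791, adjusted p = 8.9e-09, edgeR). NIFK (chr2:121726945-121736911, minus strand) shares 1619 bases with the antisense gene NIFK-AS1, which rose in every siE7 library, with a log2 fold change of 0.95 (SE 0.172, adjusted p = 0.0017, edgeR). Counts on NIFK-AS1 were 161, 179 and 191 with siNC and 383, 320 and 487 with siE7, against 568 to 1434 on NIFK. The library kit kept the strand, but whether the counting used it is not given in the sources used here, so reads in the shared part may have been placed on either gene.

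The catalytic subunits of PP1, which removes mitotic phosphates as cells leave mitosis, are encoded by PPP1CA (alpha) and PPP1CC (gamma). The gamma isoform is the one best known at Ki67 and CDCA2. The genes are close relatives that differ in base composition, 58.9% GC in the canonical transcript of PPP1CA and 40.4% in that of PPP1CC. The last 120 bases of coding exon 3 (coding bases 299 to 418 in both) are shown 5′ to 3′ for this contrast, with the 26 positions that differ in capitals, from chr11:67400689-67400808 and chr12:110730529-110730648 of GRCh38 (minus strand, canonical transcripts of GENCODE).
PPP1CA: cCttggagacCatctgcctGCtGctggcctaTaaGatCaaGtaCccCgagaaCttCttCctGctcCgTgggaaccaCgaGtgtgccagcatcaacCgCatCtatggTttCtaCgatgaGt
PPP1CC: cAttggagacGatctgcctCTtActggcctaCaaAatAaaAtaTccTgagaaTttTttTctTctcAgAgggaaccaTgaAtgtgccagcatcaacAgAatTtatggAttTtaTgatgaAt
The stretch holds 53.3% GC in PPP1CA and 36.7% in PPP1CC. Over the first 900 coding bases, aligned without gaps, 76.4% were identical, and 181 of the 212 differences fell on the third base of a codon. The longest identical run was 20 bases, well under the read length of 150 bases.

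PPP1CA fell in all siE7 libraries. It was at 139, 151 and 140 CPM with siNC and at 126, 87.6 and 83.9 CPM with siE7. Replicate 1 of siE7 lay nearest to the siNC libraries, without reaching them. It fell by 0.54 on the log2 scale (SE 0.151, adjusted p = 0.018, edgeR), and by 0.80 without siE7 replicate 1 (adjusted p = 1.8e-14, edgeR). Leaving out any single library other than siE7 replicate 1 gave log2 fold changes between -0.56 and -0.43, with the adjusted p between 0.054 and 0.078 (edgeR). RAD9A, on the opposite strand, shares 230 bases with PPP1CA and had 246 to 407 counts per library against 2417 to 3768 for PPP1CA. TBC1D10C and CARNS1, which also overlap it, had at most 6.

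PPP1CC was at 14.0, 14.5 and 17.1 CPM with siNC and at 8.30, 12.1 and 13.9 CPM with siE7. The highest siE7 library lay just under the lowest siNC library. Its log2 fold change was -0.41 (95% interval -0.84 to 0.02, adjusted p = 0.129, edgeR), which did not pass, and it was -0.28 without siE7 replicate 1 (adjusted p = 0.038, edgeR). The share of PPP1CC in the summed counts of both genes, which no library scaling can change, was 9.12%, 8.74% and 10.9% with siNC. It was 6.20%, 12.2% and 14.2% with siE7, so that siE7 replicate 1 lay below the siNC libraries and the others above them. The share removes no spread that goes with base composition, in which PPP1CA (58.9% GC) and PPP1CC (40.4% GC) differ. The difference of the means was 1.27 percentage points (two-sided exact permutation test, p = 0.6, n = 3 each), 3.60 points without siE7 replicate 1 and -0.39 points without siE7 replicate 3.

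The PP1-targeting subunits gave small differences. RRP1B (chr21:43659560-43696079, plus strand), which brings PP1 to the nucleolus, was at 98.3, 91.8 and 95.0 CPM with siNC and at 79.0, 80.2 and 75.7 CPM with siE7. All siE7 libraries were lower and close together. This gave a log2 fold change of -0.28 (SE 0.104, 95% interval -0.51 to -0.05), for which the adjusted p of 0.0576 (edgeR) missed the threshold. RRP1B passed with RLE factors in place of TMM (-0.33, adjusted p = 0.042, edgeR) and in DESeq2 (-0.34, adjusted p = 0.027). Without siE7 replicate 1 it was -0.35 (adjusted p = 7.1e-06, edgeR), with the same direction under all alternatives run.

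CDCA2 (chr8:25459199-25507911, plus strand) encodes the Repo-Man subunit that brings PP1 to anaphase chromosomes. It was at 13.5, 11.5 and 11.7 CPM with siNC and at 7.08, 13.9 and 13.8 CPM with siE7. Replicate 1 of siE7 was the lowest of the 6 libraries, and the other siE7 libraries were the highest. CDCA2 had a log2 fold change of -0.08 (95% interval -0.60 to 0.43, adjusted p = 0.806, edgeR) and 0.11 without siE7 replicate 1 (95% interval -0.13 to 0.35, adjusted p = 0.431, edgeR). CDCA2 was not called under any alternative, and its sign also turned without composition scaling (0.10).

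The abundant nucleolar chaperones NPM1 and NCL, which bind ribosomal proteins, histones and pre-rRNA, were not called. NPM1 (chr5:171387116-171411810, plus strand) was at 884, 918 and 920 CPM with siNC and at 588, 1222 and 1253 CPM with siE7. As for NIFK, siE7 replicate 1 lay below the siNC libraries and the others above. Its log2 fold change was 0.17 (95% interval -0.32 to 0.66, adjusted p = 0.586, edgeR), 0.39 without siE7 replicate 1 (adjusted p = 1.4e-07, edgeR) and -0.0036 without siE7 replicate 3. The 13 NPM1 pseudogenes with counts held 0.575% of the summed counts, and adding them changed no call.

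NCL (nucleolin, chr2:231453531-231483641, minus strand) was at 3548, 3854 and 4181 CPM with siNC and at 2878, 3852 and 3480 CPM with siE7. The groups overlapped. Its log2 fold change was -0.18 (95% interval -0.46 to 0.09, adjusted p = 0.290, edgeR) and -0.14 without siE7 replicate 1 (adjusted p = 0.068, edgeR). The ratio of NPM1 to NCL counts, independent of library scaling, was 24.9, 23.8 and 22.0 per 100 with siNC and 20.4, 31.7 and 36.0 per 100 with siE7. In that ratio siE7 replicate 1 lay under the siNC libraries and the other siE7 libraries above them. It removes no spread that goes with base composition, in which NPM1 (41.3% GC) and NCL (46.7% GC) differ. NIFK stood at 2.97 to 3.25 counts per 100 of NPM1 with siNC and at 3.26, 3.56 and 3.74 with siE7. All siE7 values lay above the siNC values, siE7 replicate 1 only just. The range was narrow beside the change of either gene between the siE7 libraries. NIFK (38.6% GC) and NPM1 (41.3% GC) are near each other in base composition, so spread that goes with it may cancel in this ratio.

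RRS1 (chr8:66429014-66430733, plus strand) is a 60S assembly factor also known to act in chromosome alignment in mitosis. It was at 153, 146 and 159 CPM with siNC and at 120, 104 and 105 CPM with siE7. The groups did not overlap. RRS1 fell by 0.48 on the log2 scale (SE 0.110, 95% interval -0.72 to -0.24, adjusted p = 0.0060, edgeR), and by 0.61 without siE7 replicate 1 (adjusted p = 1.2e-11, edgeR). RRS1 and MKI67 were the members that passed in all 6 fits with a library left out. An antisense lncRNA gene that is not in the count table shares 1720 bases with RRS1. As for NIFK, the strand setting of the counting is not given, so reads from it may have been placed on RRS1. A gene on the same strand shares 549 bases and had at most 1 count.

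BANF1 (chr11:66002228-66004149) was at 103, 107 and 104 CPM with siNC and at 94.6, 70.3 and 75.1 CPM with siE7. All siE7 libraries were lower, with siE7 replicate 1 nearest to siNC. BANF1 fell by 0.39 on the log2 scale (SE 0.128, adjusted p = 0.0354, edgeR), and by 0.59 without siE7 replicate 1 (adjusted p = 1.3e-10, edgeR). Leaving out any other library took the adjusted p to between 0.10 and 0.136 (edgeR), and without composition scaling the log2 fold change was -0.23 (adjusted p = 0.106, edgeR). The 2 BANF1 pseudogenes with counts held 0.55% of the summed counts.

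**Figure D2:**
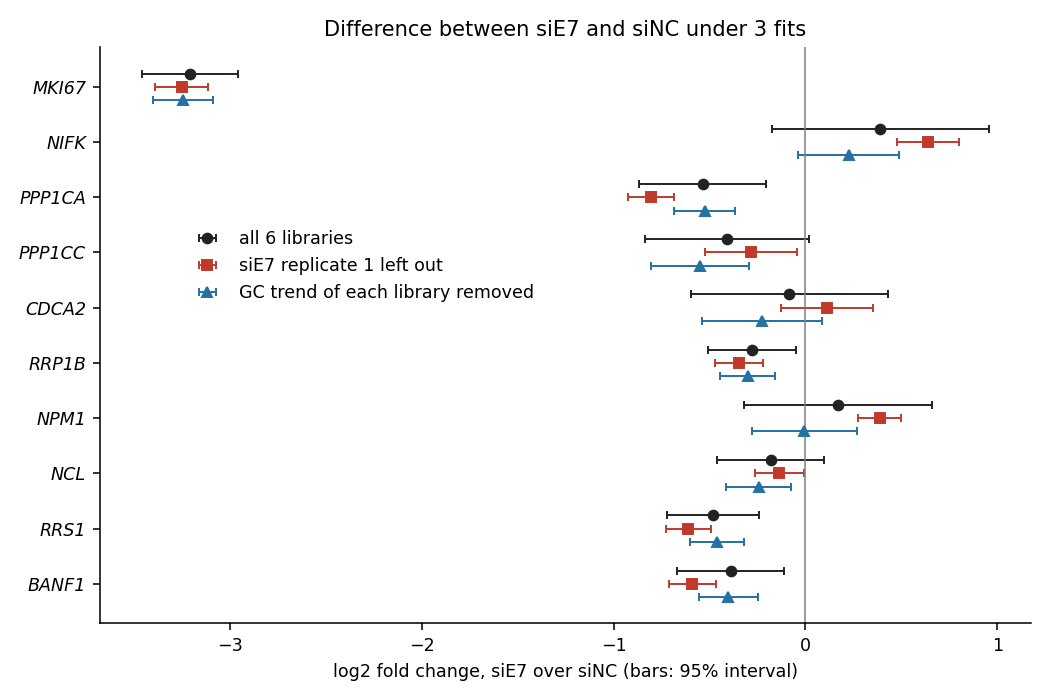
Log2 fold change of each gene (siE7 over siNC) with its 95% interval in 3 edgeR fits: all 6 libraries, siE7 replicate 1 left out, and every library corrected for its GC trend. MKI67 stays near -3.2 in all of them, and RRS1, PPP1CA and BANF1 stay below 0. NPM1 goes from 0.17 with all 6 libraries to about 0 with their GC trend removed, and is at 0.39 without siE7 replicate 1.

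The spread among the siE7 libraries went with the base composition of the transcripts. The mean of siE7 replicates 2 and 3 over siE7 replicate 1, on the log2 scale, was 1.24 for NIFK (38.6% GC), 1.07 for NPM1 (41.3%), 0.96 for CDCA2 (43.5%) and 0.65 for PPP1CC (40.4%). It was 0.35 for NCL (46.7%), 0.06 for MKI67 (48.3%) and -0.02 for RRP1B (50.5%). The GC-rich members went the other way, with -0.20 for RRS1 (56.3%), -0.38 for BANF1 (53.2%) and -0.55 for PPP1CA (58.9%). Over all tested genes the median ran from 0.75 under 40% GC to -0.41 over 60% GC. Against the siNC mean, the median under 40% GC was -0.40 in siE7 replicate 1, and 0.34 and 0.35 in siE7 replicates 2 and 3. Leaving out siE7 replicate 1 thus left a trend with GC content. The median log2 fold change was then 0.28 under 40% GC and -0.16 over 60% GC, against 0.14 and 0.04 with all libraries. Whether the composition of the transcripts or something else that differed between the siE7 libraries set these values was not tested.

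A fit that took out each library's own GC trend, chosen after the data had been seen, called 7 of the 10 members, all lower, where 50.6% of all genes were called. PPP1CC, RRP1B and NCL joined the called members, with log2 fold changes of -0.55 (adjusted p = 0.0012), -0.30 (adjusted p = 0.0015) and -0.24 (adjusted p = 0.019, all edgeR). PPP1CA, RRS1 and BANF1 kept -0.53, -0.46 and -0.40, and MKI67 kept -3.24. NPM1 gave -0.0065 (95% interval -0.28 to 0.27) and NIFK gave 0.23 (95% interval -0.04 to 0.49, adjusted p = 0.141, edgeR). Both intervals lie far above the log2 fold change of MKI67, the targeted gene, as do those of all the other partners in this fit. With siE7 replicate 1 also left out, NIFK and NPM1 were called higher, where 56.1% of all genes were called. Their log2 fold changes were then 0.37 (adjusted p = 1.2e-04) and 0.14 (adjusted p = 0.026, both edgeR).

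**Figure D3:**
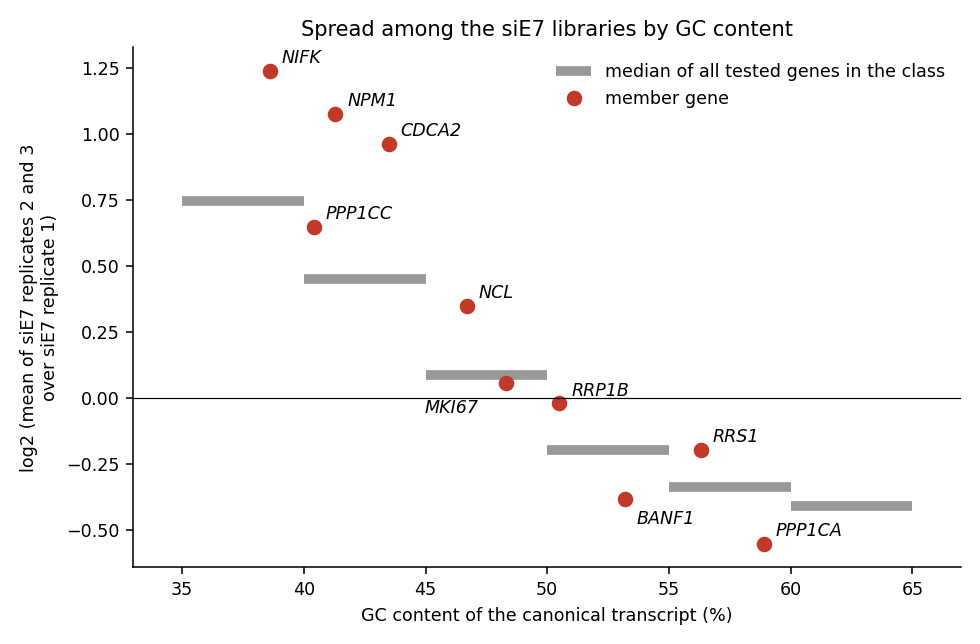
Log2 ratio of the mean of siE7 replicates 2 and 3 to siE7 replicate 1 against the GC content of the canonical transcript, with points for the 10 genes and grey bars for the median of all tested genes in each class of GC content (the classes under 40% and over 60% are open-ended). The points run from 1.24 for NIFK to -0.55 for PPP1CA, and the class medians from 0.75 to -0.41.

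Per kilobase of canonical transcript, the genes spanned a wide range of levels. With siNC the mean CPM per kilobase was 984 for NCL, 687 for NPM1, 143 for BANF1, 101 for PPP1CA, 88.7 for RRS1 and 83.3 for MKI67. RRP1B (18.7), NIFK (16.5), PPP1CC (5.95) and CDCA2 (3.52) were the low end. With siNC no neighbours in this order overlapped between libraries. With siE7, MKI67 dropped to 9.02 CPM per kilobase, under RRP1B (15.4), and stood between RRP1B and PPP1CC (4.48). NIFK (21.7) then came above RRP1B by its mean, but their libraries overlapped, as did those of NCL and NPM1, of PPP1CA and RRS1, and of PPP1CC and CDCA2.

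By a fixed measure of likeness (root mean square difference of log2(CPM + 0.02) over the 6 libraries, each gene centred on its siNC mean), the genes nearest to MKI67 in profile were SLCO2A1, ITGA2, MYH16, IL23A and TGM2. SLCO2A1 was at a distance of 0.125 and TGM2 at 0.227. Their log2 fold changes lay between -2.93 (IL23A) and -3.39 (TGM2), and none of them belongs to the members or to the lists below. The likeness was computed over 6 libraries in 2 groups, so fold changes near that of MKI67 follow from how these genes were picked.

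Genes acting with the members were taken from lists written from general knowledge, with the median log2 fold change over all tested genes at 0.08. Among 11 tested chromosome-bound neighbours of Ki67 (the kinesin KIF15, HP1 proteins and mitotic kinases), 5 fell and 1 rose (54.5% called, against 34.0% of all tested genes), with a median of -0.42. Most of this list (CDK1, CCNB1, CCNB2, PLK1, AURKB and BUB1) is also among the G2/M genes below, so the values of these lists are not separate. KIF15, whose product binds the same domain of Ki67 as NIFK, was at 12.2, 13.4 and 12.3 CPM with siNC and at 5.67, 8.62 and 7.59 CPM with siE7. Its groups did not overlap, and its log2 fold change was -0.79 (SE 0.183, adjusted p = 0.0065, edgeR). The HP1 genes went in both directions, with CBX5 (HP1 alpha) lower by a log2 fold change of -0.65 (adjusted p = 0.0018) and CBX1 (HP1 beta) higher by 0.37 (adjusted p = 0.033, edgeR). Without siE7 replicate 1, 8 of the 11 fell and 2 rose (90.9% called, against 58.4% of all genes in that fit).

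Of 45 nucleolar proteins, 3 rose, 3 fell and 39 did not pass (13.3% called, against 34.0% of all tested genes), with a median of 0.04. NOLC1, which chaperones small nucleolar ribonucleoproteins, was at 191, 207 and 217 CPM with siNC and at 643, 633 and 559 CPM with siE7. All siE7 libraries were above all siNC libraries, with a log2 fold change of 1.58 (SE 0.112, adjusted p = 4.0e-06, edgeR). MAK16, a 60S assembly factor, also rose (1.03, adjusted p = 0.0028, edgeR). BOP1, which works with PES1 in the PeBoW complex, fell with a log2 fold change of -0.86 (adjusted p = 7.7e-04), and the small nucleolar ribonucleoprotein component NOP56 fell with -0.37 (adjusted p = 0.016, edgeR). PES1 itself had -0.02 (adjusted p = 0.92), and -0.24 without siE7 replicate 1 (adjusted p = 2.7e-04, edgeR). Without that library 20 of the 45 rose and 16 fell (80% called, against 58.4% of all genes in that fit). Without composition scaling 9 rose and 1 fell (22.2% called, against 38.6% of all genes in that fit). All 17 list genes under 45% GC were higher in siE7 replicates 2 and 3 than in replicate 1, as were 9 of the other 28. This was not particular to the nucleolar list. Under 45% GC it also went for 6 of 6 Ki67 neighbours, 12 of 12 PP1, 8 of 8 nuclear envelope, 19 of 19 G2/M and 9 of 10 G1/S genes. Over all tested genes, the median of this log2 ratio was 0.75 under 40% GC and 0.45 from 40% to 45%.

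Among 35 tested genes of PP1 holoenzymes, 10 rose and 6 fell (45.7% called, against 34.0% of all tested genes), with a median of 0.14. The split was 13 higher and 11 lower without siE7 replicate 1 (64.9% called, against 58.4% of all genes). It was 12 and 10 with the GC trend removed (62.9%, against 50.6%) and 7 and 6 with RLE factors (37.1%, against 33.3%). Without composition scaling it was 15 and 5 (57.1%, against 38.6%). PPP1CB, the third catalytic subunit, was at 52.7, 45.4 and 50.7 CPM with siNC and at 35.5, 69.4 and 68.1 CPM with siE7. Like NIFK and NPM1 it was below siNC in siE7 replicate 1 and above it in the others, with a log2 fold change of 0.22 (adjusted p = 0.455) and 0.41 without that library (adjusted p = 4.0e-06, edgeR). PPP1R15A, which directs PP1 to the translation factor eIF2 alpha, rose by 0.75 (adjusted p = 0.0013), and PPP1R3C, a glycogen-targeting subunit, by 2.16 (adjusted p = 5.9e-04, edgeR) from levels of 0.729 to 1.60 CPM. PPP1R12A, the myosin phosphatase targeting subunit, fell with a log2 fold change of -1.16 (adjusted p = 6.1e-04, edgeR). CENPE, a kinetochore motor that binds PP1 and is also among the G2/M genes, fell with -1.43 (adjusted p = 0.0015, edgeR).

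Of 20 genes of the nuclear envelope and of BAF regulation, which act with BANF1, 5 fell and none rose (25% called, against 34.0% of all tested genes), with a median of -0.07. This direction turned without composition scaling (2 higher, none lower, median 0.10), where 10% of the list and 38.6% of all genes were called. The median over all tested genes also moved up in that setting, from 0.08 to 0.25, and the list's median lay under it in both. LMNB2 (lamin B2) had a log2 fold change of -0.43 (adjusted p = 0.022) and SUN1, of the inner nuclear membrane, -0.36 (adjusted p = 0.026, edgeR). Leaving out 1 library gave between 0 and 10 called genes of this list, where 20.9% to 58.4% of all genes were called. Without siE7 replicate 1 there were 3 higher and 7 lower (50% called, against 58.4% of all genes in that fit).

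MKI67 mRNA is itself known to vary with the cell cycle, and genes of the cycle were read beside it. Of 25 G1/S genes, 14 fell and 2 rose (median -0.35), and of 31 tested G2/M genes 17 fell and none rose (median -0.45), where 16.0% of all tested genes fell and 18.0% rose. TYMS, a nucleotide synthesis enzyme, fell with a log2 fold change of -0.83 and CCNE1 (cyclin E1) with -0.89, whereas PCNA, the replication clamp, and E2F1 rose by 0.43 and 0.52. BIRC5 (survivin), of the chromosomal passenger complex, fell with -1.47 (adjusted p = 7.4e-06, edgeR) and CENPF, a kinetochore protein, with -0.86. The fall of MKI67 was far beyond the lowest G2/M gene, BIRC5. Without siE7 replicate 1, 16 G1/S genes fell and 6 rose, and 25 G2/M genes fell and 3 rose, where 29.5% of all genes fell and 28.9% rose. The part that cell cycle position had in the values of MKI67 and its partners was not tested.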

How the data were processed

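RNA-seq was done on 6 libraries of SCC-9 cells (3 siE7, 3 siNC; oligo(dT)-selected, strand-keeping libraries, 150-base paired reads). The authors deposited whole-number read counts per gene, not normalized. The submitters' processing notes name HISAT2, DESeq2 and GRCh38; the counting tool, annotation release and strand setting are not given in the sources used here. Samples were grouped by their titles.

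Of 25349 genes, 14661 passed filterByExpr (edgeR 4.0.16 under R 4.3.3). Libraries of 25608192 to 29550264 counts were scaled by TMM, and the groups were compared with the robust quasi-likelihood F-test of edgeR, with Benjamini-Hochberg adjustment over all tested genes. DESeq2 1.42.0 was an alternative. The test was checked on simulated counts. Replicate numbers did not pair the libraries (correlations of deviations between same-numbered libraries -0.033, -0.015 and -0.043). Positions and GC content come from GENCODE v44 on GRCh38. The GC trend was a lowess fit with a span of 0.3. Figures were drawn with matplotlib 3.10.9.

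The members and lists were chosen with earlier results of these data known. Named genes were the 10 members, the 2 called genes with the smallest p in each direction of each list, KIF15, PPP1CB and PES1, the 5 genes nearest to MKI67 in profile, and pseudogenes and overlapping genes with counts.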

Additional observations from a re-analysis of the deposited data

How the results depend on the processing

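The 11 alternatives changed the test, the scaling, the filter, the block, the GC correction or the pseudogene counts (1 of them also without siE7 replicate 1). MKI67, RRS1 and PPP1CA kept their direction and their call under all 11. BANF1 kept its direction under all 11 and its call under 10. RRP1B, PPP1CC, NCL and NIFK kept their direction. DESeq2 and RLE factors each called 5 members, RRP1B being added, and 19.2% and 33.3% of all genes tested. DESeq2 was run without the filter on low counts, on 25348 genes. Leaving out 1 library in turn gave 3153 to 8765 called genes (20.9% to 58.4% of those tested), the highest without siE7 replicate 1. These fits called 2 to 8 members. The same fits called 3 to 36 nucleolar, 10 to 24 PP1, 0 to 10 nuclear envelope, 3 to 10 Ki67 neighbour, 7 to 22 G1/S and 12 to 28 G2/M genes. They put the log2 fold change of CDCA2 between -0.23 and 0.11, that of NPM1 between -0.0036 and 0.39, and the difference of the PPP1CC share between -0.39 and 3.60 points. Without composition scaling the median over all genes was 0.25 instead of 0.08, the share of DEGs that were higher 76.2% instead of 60.4%, and CDCA2 0.10. That setting called 10 nucleolar, 2 nuclear envelope and 10 G2/M genes, and 38.6% of all genes. Upper-quartile factors called 2 nuclear envelope genes (34.3% of all genes), and a minimum of 10 counts in every library 3 of them (35.1% of all genes). No filter called 11 nucleolar genes (21.6% of all genes). Testing against a threshold of 1 on the log2 scale (glmTreat) left 337 DEGs. A replicate block called 4947 genes (33.7%), and changed no call of a member. With the GC trend removed (chosen after seeing the data), 7 members, 22 nucleolar and 26 G2/M genes were called, against 50.6% of all genes. NPM1 gave -0.0065. With the replicate block added, 7 members, 21 nucleolar and 8 nuclear envelope genes were called, against 50.1% of all genes, and NPM1 gave -0.027. With the GC trend removed and siE7 replicate 1 left out, 8427 genes (56.1% of those tested) and 9 members were called. Of these members, NIFK (0.37) and NPM1 (0.14) were higher. That fit also called 28 nucleolar, 8 nuclear envelope, 11 Ki67 neighbour and 27 G2/M genes. The cause of these shifts was not tested.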
